A study of Mus musculus with 3 samples.

Results

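The Schlafen genes are a mouse family that lies in a cluster on chromosome 11. The 7 members described here are Slfn1, Slfn2, Slfn3, Slfn4, Slfn5, Slfn8 and Slfn9. They were found by matching the RefSeq accession of each array probe to the gene symbol, which gave 9 probes among 26055 matched probes for 19751 genes. The family was picked with the values of these arrays in view, so its ratios against naive cells are a description and carry no test. RNA was compared on 3 Agilent arrays of 2 colours each, with naive CD4 T cells in Cy3 and a polarised culture in Cy5. The cells were from the spleen of C57BL/6 animals (6 to 8 weeks old), and naive cells were enriched with magnetic beads. All cultures were stimulated for 3 days through CD3e and CD28 (10 µg/ml of each antibody). In Th2 cultures interferon gamma was blocked with antibody (2 µg/ml), and IL-4 was given at 5 ng/ml with IL-2 at 1 ng/ml. In Th9 cultures the same antibody was used at 5 µg/ml, and TGF-beta 1 was given at 2 ng/ml, IL-4 at 1 ng/ml and IL-2 at 0.2 ng/ml. For induced regulatory T cells (iTreg) both interferon gamma and IL-4 were blocked (5 µg/ml of each antibody), and TGF-beta 1 was given at 5 ng/ml with IL-2 at 0.4 ng/ml. Each culture is 1 biological replicate on 1 array with no dye swap, and cells stimulated in the absence of polarising cytokines were not analysed here. A difference from naive cells therefore holds activation, medium and any dye effect of a probe together.

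Schlafen proteins are named for sleep, after a growth arrest seen when the first members were expressed in T cells. Slfn1 and Slfn2 form the short group of the family, Slfn3 and Slfn4 the intermediate group, and Slfn5, Slfn8 and Slfn9 the long group, which carries a helicase-like part. Many members are induced by type I interferon. Slfn2 is known for keeping T cells quiescent, since T cells that lack its function leave the resting state and die when activated, and it binds transfer RNA and shields it from cleavage. Slfn4 is best known from macrophages and other myeloid cells.

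In these data Slfn8, Slfn1 and Slfn2 were far lower in all 3 cultures than in naive cells, and least so in iTreg. Slfn9 was below naive in Th2 (short of 2-fold) and Th9 (beyond 2-fold), and in iTreg it was above naive by its brighter probe and within its error of naive by the second. Slfn3 stayed within its error of the naive level in every culture, Slfn5 was above background in naive cells alone, and Slfn4 was above background on the Th2 array alone.

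The promoters of the members are shown because several members moved together. The RefSeq sequences (build GRCm38.p6) run from 250 bases before to 50 bases after the start site, and all 7 members matched. A search on both strands for the core of the interferon-stimulated response element, which is GAAA, any 2 bases and GAAA again, found it in 3 of 7 members, namely Slfn5, Slfn8 and Slfn9. The core is in 3.44% of all 32851 RefSeq promoters of this length, and in 11 of 22 genes matched from the list of interferon-stimulated genes. Shares of all promoters count each start site, while counts of genes take a match at any start site of the gene. TTCNNNGAA, the letters of a STAT site, was in none of the 7 and in 8.30% of all promoters. A match describes letters only. The promoters of Slfn8 (chr11:83020761-83021060, minus strand), Slfn9 (chr11:82991781-82992080, minus strand), Slfn5 (chr11:82951852-82952151, plus strand), Slfn2 (chr11:83064862-83065161, plus strand) and Slfn1 (chr11:83116570-83116869, plus strand) follow, 5′ to 3′ along the gene. Capitals mark the match to this core, which in Slfn8 and Slfn9 lies on the opposite strand as GAAAACGAAA and in Slfn5 on the gene's own strand.
Slfn8: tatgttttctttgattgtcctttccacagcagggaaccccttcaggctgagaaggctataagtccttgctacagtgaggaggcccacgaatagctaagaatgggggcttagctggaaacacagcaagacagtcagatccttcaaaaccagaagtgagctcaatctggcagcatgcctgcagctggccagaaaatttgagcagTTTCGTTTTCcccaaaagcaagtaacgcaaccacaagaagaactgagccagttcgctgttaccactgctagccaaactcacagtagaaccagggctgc
Slfn9: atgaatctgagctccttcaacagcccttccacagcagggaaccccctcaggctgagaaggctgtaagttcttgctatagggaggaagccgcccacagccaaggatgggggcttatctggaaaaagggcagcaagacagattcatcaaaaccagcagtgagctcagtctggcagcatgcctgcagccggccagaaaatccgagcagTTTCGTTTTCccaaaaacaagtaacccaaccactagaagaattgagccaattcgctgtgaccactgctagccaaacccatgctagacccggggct
Slfn5: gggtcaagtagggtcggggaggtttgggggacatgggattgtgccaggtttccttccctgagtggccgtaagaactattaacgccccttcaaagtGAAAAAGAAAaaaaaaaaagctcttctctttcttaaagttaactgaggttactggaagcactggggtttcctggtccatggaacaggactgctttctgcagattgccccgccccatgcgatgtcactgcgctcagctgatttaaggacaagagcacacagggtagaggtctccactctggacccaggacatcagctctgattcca
Slfn2: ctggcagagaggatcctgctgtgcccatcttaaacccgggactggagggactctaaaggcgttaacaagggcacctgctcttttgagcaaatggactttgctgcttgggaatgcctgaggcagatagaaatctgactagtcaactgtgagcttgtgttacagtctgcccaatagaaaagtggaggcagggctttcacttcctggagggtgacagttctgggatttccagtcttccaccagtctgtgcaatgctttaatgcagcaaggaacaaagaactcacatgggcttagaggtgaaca
Slfn1: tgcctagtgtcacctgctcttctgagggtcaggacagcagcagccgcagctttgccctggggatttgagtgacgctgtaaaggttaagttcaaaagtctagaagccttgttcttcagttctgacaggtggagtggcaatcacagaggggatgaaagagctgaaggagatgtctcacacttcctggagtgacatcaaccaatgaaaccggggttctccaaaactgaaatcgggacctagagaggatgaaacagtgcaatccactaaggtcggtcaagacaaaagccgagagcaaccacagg

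The match begins at base -48 from the start site in Slfn8 and at -45 in Slfn9. These promoters were 80.8% identical in a global alignment, whereas the other 20 pairs of members lay between 46.5% and 53.0%. A second start site of Slfn8 (chr11:83020673-83020972) overlaps the first and holds the same match. Slfn1 and Slfn2 had no match in this window, although their transcripts were among the lowest against naive (below).

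Spots were called above background by the scanner software. On each array 53.0% to 54.1% of 43020 gene spots passed in the naive channel and 48.9% to 51.0% in the culture channel, and none was saturated. Signals below are the scanner's median spot intensities. Levels are log2 intensities after background correction and scaling, and can be compared only within a probe. A log2 ratio is the culture over the naive level on the same array, and ± is the error that the scanner software assigned to the spot (n = 1 array). That error covers 1 array and no spread between cultures. The label genes were high in their cultures, with Il4 at log2 5.08 ± 0.61 in Th2, Il9 at 6.52 ± 0.81 in Th9 and Foxp3 at 3.49 ± 0.40 in iTreg. Il13 (4.41 ± 0.56) and Gata3 (1.40 ± 0.24) were also higher in Th2. These genes were not exclusive to the labelled culture. In Th9 Il4 was at 1.04 ± 0.27, Gata3 at 1.01 ± 0.22 and Foxp3 at 1.28 ± 0.24, and Il13 was higher by at least log2 1.26. In Th2 Il9 was higher by at least log2 2.64, while Foxp3 was at -0.68 ± 0.23. In iTreg Gata3 was at 0.53 ± 0.21 and Il13 at -0.07 ± 0.29, Il4 was lower, and Il9 was above background in neither channel.

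A member counted as measured when both channels were above background, and as lower when its ratio was at least 2-fold down. In Th2 3 of 6 measured members were lower, where 14.5% of 10944 measured genes were. In Th9 it was 4 of 5, where 15.6% of 10781 genes were. In iTreg it was 3 of 5, where 8.15% of 11119 genes were. No measured member was at least 2-fold higher in any culture, where 14.8%, 15.5% and 10.2% of genes were in Th2, Th9 and iTreg. The median ratio of the measured members was -1.74 in Th2, -3.26 in Th9 and -1.41 in iTreg, beside -0.02, -0.01 and -0.02 over all measured genes. The Th2 median alone counts Slfn4 (0.42 ± 0.32), a dim spot. The medians are thus not over the same members and are not compared between cultures. Slfn1, Slfn2 and Slfn8 were lower on all 3 arrays, as were 6.02% of 10347 genes measured on all of them. The count in Th2 was 4 by the scanner software's ratio, by the deposited values and with no filter on dim probes, and that in Th9 was 5 with no such filter. The members were chosen on these contrasts, so nothing is read from the counts.

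**Figure D1:**
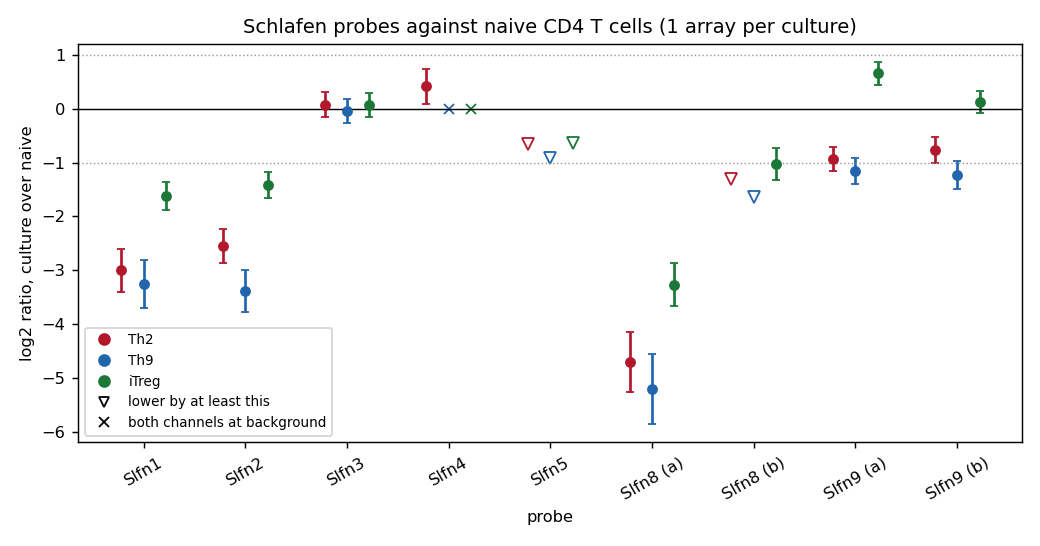
Log2 ratio of each culture over naive CD4 T cells (vertical axis) for the 9 Schlafen probes (horizontal axis; a, the brighter probe of a gene, b, the other). Bars are the scanner software's error of the spot, triangles are bounds where the culture channel was not above background, crosses mark probes with no signal above background in either channel, and dotted lines mark 2-fold. Slfn8 (a), Slfn1 and Slfn2 lie below the 2-fold line in all cultures, with iTreg nearest to 0.

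Slfn8, of the long group, had the lowest ratios of the family by its brighter probe (NM_181545). The naive signal was 4028.5, 4009 and 3993 on the 3 arrays. The culture signal was 173 in Th2, 113 in Th9 and 450 in iTreg, over backgrounds of 47 to 49.5. All 3 cultures therefore lay far below every naive channel, and iTreg was the highest of them. The log2 ratio was -4.71 ± 0.56 in Th2 (26.2-fold lower), -5.21 ± 0.65 in Th9 (37.1-fold) and -3.27 ± 0.40 in iTreg (9.64-fold). The size depended on the processing: the scanner software's ratio of this probe was -5.52, -6.39 and -3.62 in the same order, and the mean over both Slfn8 probes was -3.01, -3.45 and -2.15. Counted from the lowest, Slfn8 ranked 7 of 10944 measured genes in Th2, 2 of 10781 in Th9 and 23 of 11119 in iTreg.

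The other Slfn8 probe, named for a different transcript (NM_001167743), was dimmer, with naive signals of 221, 227 and 221. Its culture signal was 85 in Th2, 72 in Th9 and 111 in iTreg. Only that of iTreg was well above background. The ratio was -1.03 ± 0.30 in iTreg, with bounds of at least 2.49-fold lower in Th2 and at least 3.09-fold lower in Th9. Both probes put Slfn8 at least 2-fold lower in every culture, but their sizes in iTreg differed by more than 2-fold (9.64-fold and 2.04-fold). The scanner software's own ratio of the dimmer probe was -3.04, -4.26 and -2.05, so its size depended on the treatment of low signals.

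Slfn1, of the short group, had naive signals of 1358, 1401 and 1405 (NM_011407). Its signal was 192 in Th2, 153 in Th9 and 495 in iTreg. No culture reached the naive range, and Th2 and Th9 lay close together. The log2 ratio was -3.00 ± 0.40 in Th2, -3.26 ± 0.45 in Th9 and -1.62 ± 0.26 in iTreg. Slfn1 was lower still by the scanner software's ratio in Th2 (-3.66) and Th9 (-4.24).

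Slfn2, the quiescence factor of the short group, was a bright probe in naive cells (NM_011408), with signals of 10909.5, 11526 and 11508.5. It read 2899.5 in Th2, 1617 in Th9 and 6043 in iTreg. Slfn2 was thus lower in each culture, yet stayed well above background in all of them. The log2 ratio was -2.55 ± 0.32 in Th2 (5.86-fold lower), -3.38 ± 0.39 in Th9 (10.4-fold) and -1.41 ± 0.24 in iTreg (2.67-fold). With median centring in place of loess the Th2 value was -1.87.

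Slfn9, the long member that lies next to Slfn8 on the chromosome, followed another course. By its brighter probe (NM_172796) the naive signal was 822, 732 and 748.5, against 512 in Th2, 380 in Th9 and 1382 in iTreg. Th2 and Th9 were below the naive range and iTreg above it. The log2 ratio was -0.93 ± 0.23 in Th2, short of 2-fold, -1.15 ± 0.24 in Th9 and 0.66 ± 0.21 in iTreg. The second probe of the same transcript gave -0.77 ± 0.24 in Th2, -1.22 ± 0.26 in Th9 and 0.13 ± 0.21 in iTreg. Both probes agreed that Slfn9 was not lower in iTreg, while the higher value in iTreg rested on the brighter probe. Of 1668 genes at least 2-fold lower in Th9, 5.7% had an iTreg ratio above 0.

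Slfn3, of the intermediate group, gave weak and even signals (NM_011409). They were 181, 171.5 and 172.5 in the naive channels, and 218 in Th2, 178 in Th9 and 217 in iTreg. Its log2 ratios of 0.08 ± 0.23, -0.04 ± 0.23 and 0.07 ± 0.22 for Th2, Th9 and iTreg all lay within the error of 0. The local background of the iTreg spot (60) was called an outlier by the scanner software.

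Slfn4, the other intermediate member, read 134.5 in Th2, 50 in Th9 and 54 in iTreg (NM_011410). The Th2 spot was above background and the other culture spots were not. On the Th2 array the log2 ratio was 0.42 ± 0.32. The naive channel of that same spot was also brighter, at 88.5 against 49 and 49 on the other arrays, and above background there alone. Naive levels of Slfn4 spread with an SD of 0.367 over the 3 arrays. The 95th percentile was 0.151 for genes measured on all arrays, a set of brighter probes that does not hold Slfn4. Whether that spot or the RNA differed was not tested. The Cy5 level in Th2 was at least 1.67-fold above that in Th9 and at least 1.90-fold above that in iTreg.

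Slfn5, of the long group, was above background in the naive channel of every array (NM_183201; 127, 133 and 137) and in no culture (52.5 in Th2, 63 in Th9 and 83 in iTreg). It was at least 1.57-fold lower in Th2, at least 1.88-fold in Th9 and at least 1.55-fold in iTreg. All 3 bounds lie short of 2-fold. The scanner software's own ratios were -3.36, -3.30 and -2.14. Outside the 7 members, probes of Slfn14 and Slfnl1 were not well above background in any channel.

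**Figure D2:**
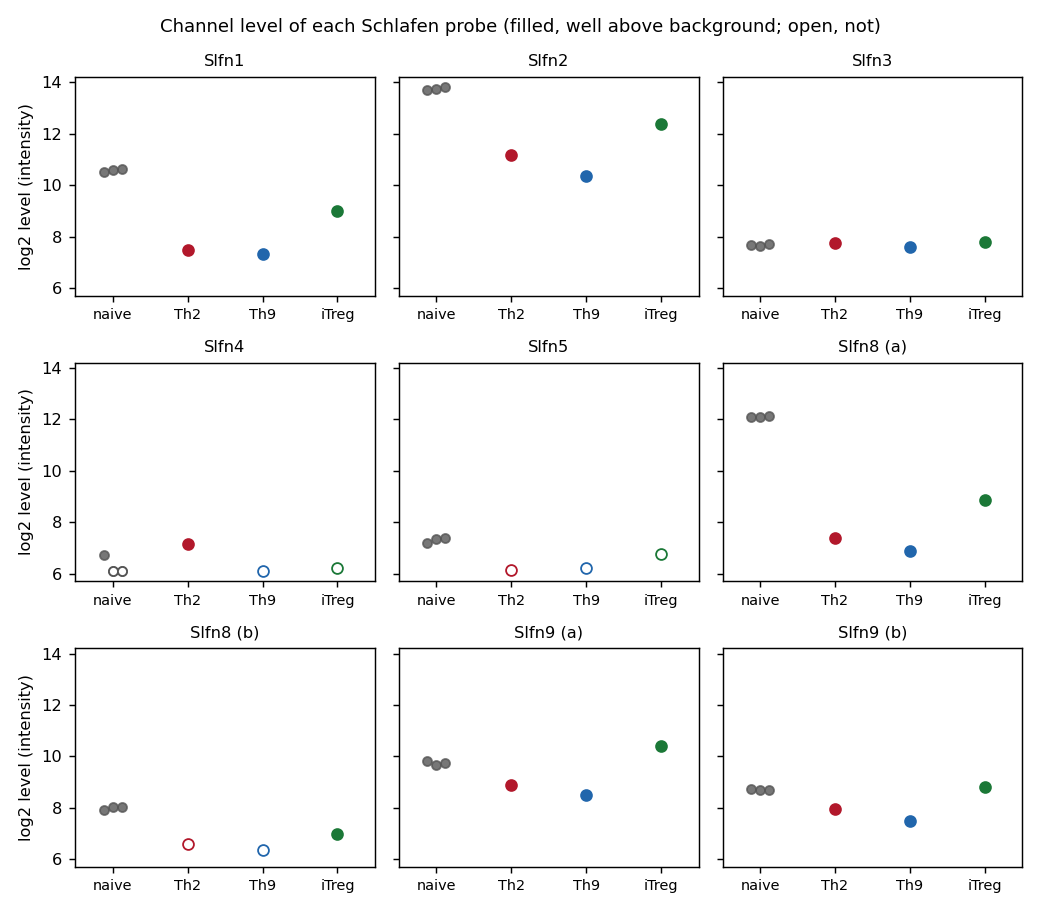
Log2 intensity of each Schlafen probe (vertical axis) in the naive channel of the 3 arrays (grey, array of Th2, Th9 and iTreg from left to right) and in each culture. Filled points are well above background and open points are not. The naive points of Slfn1, Slfn2 and Slfn8 (a) lie above every culture, while iTreg is the highest point of Slfn9 (a).

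The order of the levels was naive, iTreg, Th2, Th9 from high to low for Slfn1, Slfn2 and Slfn8, and iTreg, naive, Th2, Th9 for Slfn9. The naive levels of these genes had SDs of 0.060, 0.056, 0.027 and 0.073 over the 3 arrays, and the labels do not say whether these were 1 RNA extract. Th2 and Th9 were not separable beyond the spots' errors for Slfn1 (Th9 minus Th2, -0.26 ± 0.60), Slfn8 (-0.50 ± 0.86) and Slfn3 (-0.13 ± 0.32). For Slfn9 the brighter probe was within its error (-0.22 ± 0.33) and the second probe beyond it (-0.45 ± 0.35). Slfn2 was at -0.83 ± 0.50, beyond its error but short of 2-fold. None of the 5 members measured on both arrays was at least 2-fold apart, where 2.66% of 10457 genes were, but with median centring in place of loess Slfn2 was (-1.14).

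Each culture was hybridised in Cy5 against naive cells in Cy3, so a fixed dye effect of a probe cancels between cultures. Each difference below subtracts the ratio of one array from that of another and so also holds any difference between their naive channels. The iTreg minus Th9 difference was 1.96 ± 0.46 for Slfn2 (3.90-fold), 1.95 ± 0.76 for Slfn8, 1.81 ± 0.32 for Slfn9 (1.35 ± 0.34 by its second probe) and 1.64 ± 0.52 for Slfn1. Slfn3 was at 0.12 ± 0.32. Thus 4 of 5 measured members were at least 2-fold higher in iTreg than in Th9, where 6.80% of 10479 genes were. The iTreg minus Th2 difference was 1.59 ± 0.31 for Slfn9 (0.90 ± 0.31 by its second probe), 1.44 ± 0.69 for Slfn8, 1.38 ± 0.48 for Slfn1, 1.14 ± 0.40 for Slfn2 and -0.01 ± 0.32 for Slfn3. Again 4 of 5 were at least 2-fold higher, where 6.86% of 10537 genes were. With median centring in place of loess only Slfn9 remained so (1.04), with Slfn8 at 0.87, Slfn1 at 0.85 and Slfn2 at 0.43. With the mean over all probes of a gene the count was 3, with Slfn8 at 0.86. By the dimmer Slfn8 probe the iTreg level was at least 1.31-fold above that in Th2 and at least 1.49-fold above that in Th9. Both bounds lie short of 2-fold. Less distance from naive in iTreg was common among genes that were low in the other cultures. Of 1358 genes at least 2-fold lower in both Th2 and Th9, 87.4% had a higher ratio in iTreg than in either, 27.4% were at least 2-fold above Th2 and 29.6% at least 2-fold above Th9. The full order of Slfn1, Slfn2 and Slfn8, with Th9 lowest and iTreg highest, was that of 53.0% of those genes.

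**Figure D3:**
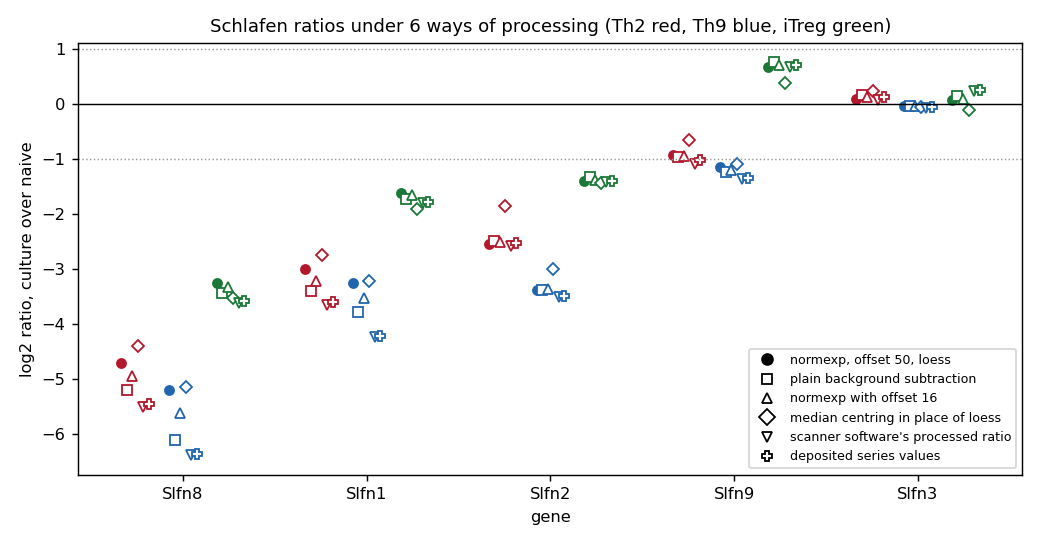
Log2 ratio over naive (vertical axis) of the 5 Schlafen genes measured on all arrays, under the main processing (filled) and 5 alternatives (open), for Th2 (red), Th9 (blue) and iTreg (green). Slfn8 in Th9 ran from -5.15 to -6.39, and Slfn1, Slfn2 and Slfn8 stayed below the 2-fold line throughout.

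Genes of the programmes that Schlafen genes are known for were counted on the same arrays. Of all measured genes 14.5%, 15.6% and 8.15% were at least 2-fold lower in Th2, Th9 and iTreg, and 14.8%, 15.5% and 10.2% higher. These shares stand beside every list below. Within each list, lowest and highest refer to the mean ratio over the 3 arrays of genes measured on all of them. Of the interferon-stimulated genes 18 of 26 measured were at least 2-fold lower in Th2, 21 of 23 in Th9 and 18 of 25 in iTreg, and none was higher. Their median log2 ratios were -1.58, -2.60 and -1.76. The lowest were Oas1a, a sensor of viral RNA (Th2 -4.04 ± 0.51, Th9 -4.39 ± 0.59, iTreg -3.61 ± 0.47), and Samd9l, an interferon-induced restriction factor (-4.70, -5.14 and -1.89). Dhx58 (0.46, 0.04 and 0.26) and Ifi27l2a (-0.54, -1.54 and 0.62) had the highest means of the list. Oas1a and Samd9l had their highest ratio in iTreg, as Slfn8 did, with a wider gap to the other cultures for Samd9l than for Oas1a. The list did not share this order as a whole. Some of its other genes had their lowest ratio in iTreg, and its median was lower in iTreg (-1.76) than in Th2 (-1.58).

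Interferon receptors and signalling genes were mixed, with 6 lower and 4 higher of 18 measured in Th2, 5 and 2 of 17 in Th9, and 4 and 2 of 18 in iTreg. The transcription factors Irf3 (-2.25, -2.40 and -1.72 in Th2, Th9 and iTreg) and Irf1 (-1.80, -2.14 and -2.23) were lowest. Irf8 (1.58, 2.17 and 2.89) and the receptor chain Ifnar2 (1.30, 1.73 and 1.73) were highest.

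Among quiescence genes 13 of 23 measured were lower in Th2, 14 of 24 in Th9 and 6 of 24 in iTreg, with medians of -1.40, -1.18 and -0.48. Under median centring the Th2 median was -0.46. Il7r, the IL-7 receptor chain, was among the lowest (-3.10, -4.61 and -2.83). Klf4 (1.17, 1.49 and 1.51) and the cell cycle inhibitor Cdkn2c (0.58, 0.83 and 0.83) were highest. In the list of transfer RNA cleavage and translational stress genes 1 was lower and 2 were higher of 10 measured in Th2, 2 and 3 of 11 in Th9, and 1 and 2 of 11 in iTreg. Rnh1, an inhibitor of angiogenin, the ribonuclease that cuts transfer RNA, was highest (2.38 ± 0.31 in Th2, 1.46 ± 0.25 in Th9 and 0.74 ± 0.22 in iTreg), then the kinase gene Eif2ak3 (mean of 1.34 over the 3 arrays). Gcn1, which takes part in sensing stalled ribosomes, was among the lowest (-0.93, -0.76 and -1.02).

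**Figure D4:**
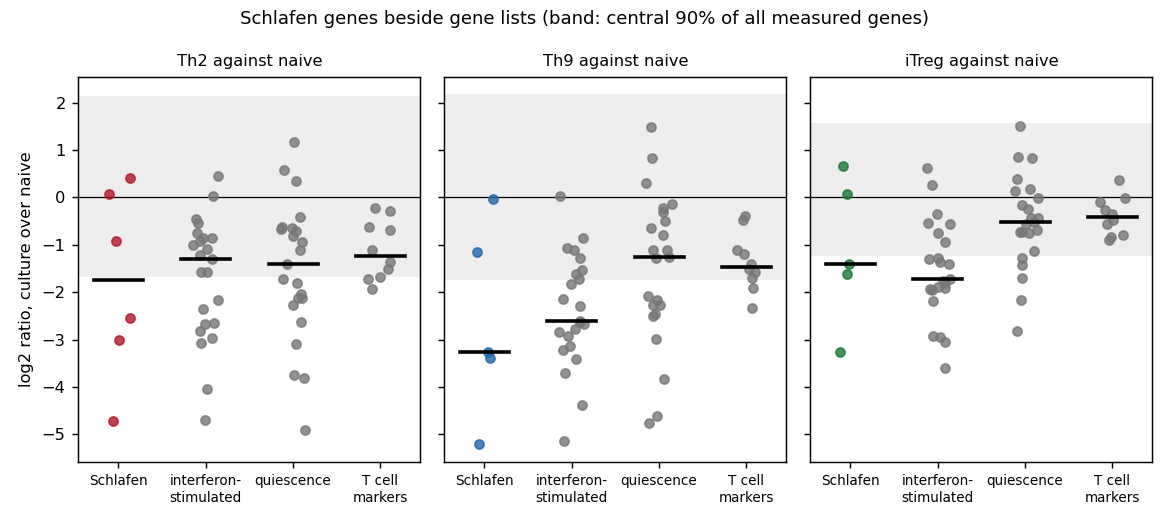
Log2 ratio over naive (vertical axis) of the measured Schlafen genes (coloured) and of the interferon-stimulated, quiescence and T cell marker genes measured on all 3 arrays (grey), for each culture; short lines are medians of the points shown and the grey band holds the central 90% of all measured genes. Slfn8 (-4.71 in Th2, -5.21 in Th9) lies level with Samd9l of the interferon list (-4.70 and -5.14) in those cultures only. In iTreg Slfn8 (-3.27) lies well below Samd9l (-1.89) and just above Oas1a (-3.61), which lies above Slfn8 in Th2 (-4.04) and Th9 (-4.39).

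Markers of other cells also differed between naive and cultured cells, and their part in the Schlafen ratios was not tested. All 10 T cell markers were above background in every channel. Their summed level was 434740 to 492119 intensity units in the naive channels, 240992 in Th2, 197640 in Th9 and 341318 in iTreg. Of the 10, 6, 8 and 0 were at least 2-fold lower in these cultures, where 14.5%, 15.6% and 8.15% of measured genes were. Zap70 (-0.28, -0.39 and 0.37) and Cd4 (-0.62, -0.47 and -0.35) had the highest means of these markers, and Trat1 (-1.72, -2.34 and -0.80) and Cd3e (-1.94, -1.91 and -0.89) the lowest. Of 12 markers of myeloid cells on the array, 10 or 11 were above background in the naive channels (summed level 27074 to 29526), 6 in Th2 (9755), 6 in Th9 (9560) and 8 in iTreg (19446). Tyrobp (-2.91, -3.31 and -3.52 in Th2, Th9 and iTreg) and S100a9 (-4.24, -2.85 and -2.23) were lowest of these, and Csf1r (-0.60, -0.61 and -0.60) and Itgam (-1.15, -1.18 and -0.14) highest. For NK and CD8 T cells 11 of 12 markers were above background in naive cells (81246 to 87321) and 8, 7 and 7 in Th2, Th9 and iTreg (23080, 9525 and 9275), with Cd8a above background in no channel. Gzma (-2.80, -4.35 and -6.48) and Klrd1 (-4.21, -4.11 and -1.11) were lowest, and Gzmb (2.36, 0.82 and -1.85) and Cd8b1 (0.06, -0.80 and -0.30) highest. The B cell markers Cd79a and Ms4a1 were above background in no channel, and the summed B cell level was 1543 to 1577 in naive cells and 3046 to 3248 in the cultures, with Cd79b at 2.08, 2.03 and 1.83 and Cd22 at -0.77, -0.85 and -0.01. Red cell and platelet markers summed to 1595 to 1752 in naive cells and 649 to 697 in the cultures, with the haemoglobin gene Hba-a1 at -2.54, -2.81 and -2.72. In whole preparations fewer cells of a type and less RNA per cell cannot be told apart.

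The genes whose 3 ratios lay nearest to those of a member, by Euclidean distance among 10346 other genes measured on all arrays, differed between members. Xaf1, an interferon-induced gene, was nearest to Slfn2 (distance 0.13; -2.68, -3.42 and -1.41 in Th2, Th9 and iTreg), followed by Msrb2 (0.29) and Tmem185b (0.39). Tmem185b was nearest to Slfn1 (0.12), then Gnl1 (0.23) and the interferon-inducible GTPase gene Gvin1 (0.36). Slfn8 had no close neighbour, the nearest being Vipr1 (0.73), Gm11346 (0.94) and Cd1d1 (1.00). Arl4a (0.18), Tmem106b (0.23) and Dexi (0.25) were nearest to Slfn9, all with ratios below 0 in Th2 and Th9 and above 0 in iTreg (0.61, 0.51 and 0.56). Nearest to the flat Slfn3 were Atpaf2 (0.04), Prss48 (0.05) and Eef1akmt2 (0.06). A likeness over 3 arrays is a description of these arrays.

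On the chromosome the members follow each other as Slfn5, Slfn9, Slfn8, Slfn2, Slfn1, Slfn4 and Slfn3, so Slfn8, Slfn2 and Slfn1 lie between Slfn9 and Slfn4. Slfn10-ps, which lies between Slfn8 and Slfn2, had no matched probe. The 5 measured genes on either side of the cluster, taken by position after the members' values were seen, were mixed. Before the cluster Nle1, the nearest, was at -0.24 in Th2, -0.33 in Th9 and -0.94 in iTreg. Rad51d, a DNA repair gene, was at 1.25, 1.11 and 0.51. After it Ccl5, a chemokine gene and the farthest of the 5, was at -1.81, -4.15 and -3.39. Ccl5 was the only one of these 10 genes that was lower by at least 2-fold in all 3 cultures.

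The members have similar sequences, and the files hold no probe sequences, so cross-hybridisation within the family was not tested. Slfn8 and Slfn9, the pair with the most similar promoters, differed by 3.93 log2 units in iTreg by their brighter probes. Their dimmer probes lay closer together there, at -1.03 ± 0.30 for Slfn8 and 0.13 ± 0.21 for Slfn9. Likeness of promoters is not likeness of probes, and these values do not test cross-hybridisation.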

How the data were processed

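Median spot and background intensity values were taken from the deposited scanner files, quantified with Agilent Feature Extraction 11.0.1.1 per the file headers (9.3.2.1 in the submitters' processing notes). The deposited files also give processed intensities, a log10 ratio and its error, also log10, and from the scanner's error model a p-value that was not used. The deposited series values were log2 ratios of the processed signals plus 0.056, 0.021 and 0.037 for Th2, Th9 and iTreg (within 0.01 for at least 99.96% of probes). Their centring is otherwise not stated in the sources used here.

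Background was corrected by normexp (offset 50, which draws the ratios of dim spots towards 0) and loess was applied to the ratios of each array (limma 3.58.1 in R 4.3.3; Python 3.11.15, pandas 2.3.3, numpy 2.4.6, Biopython 1.88, matplotlib 3.10.9). Control spots and feature outliers had no weight, and outliers were dropped. Levels were scaled by quantiles of mean intensity. The code was run on simulated signals in which few spots changed, equally up and down. That run does not bear on the choice between loess and median centring. Of 39429 probes 66.1% matched a gene of GRCm38.p6 by accession, and names only were used, since the array design was built on mm9. The probe with the highest mean intensity stood for a gene. A bound sets the bright channel against the higher of the dim spot's own level and the lowest level above background in its channel, and is given as "at least". With 1 array per culture no test was made, and genes were classed by size (at least 2-fold).

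The members and lists were chosen with earlier results of these data known. All members, the 2 highest and 2 lowest genes of each list by mean ratio among those measured on all arrays, the genes that check the culture labels, and the 3 nearest genes of each member measured on all arrays are named. The flanking genes and the markers at background were chosen after their values were seen. Some genes that these rules would name are not reported here. Proteins were not compared, since no protein table was used here. The alternatives are other background corrections, median centring, the processed and deposited ratios, the mean over probes, and no filter on dim probes.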

Additional observations from a re-analysis of the deposited data

Results flagged for a closer look

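Slfn9 pointed in opposite directions against naive cells, at -0.93 in Th2 and -1.15 in Th9 but 0.66 in iTreg by its brighter probe. Its second probe was at 0.13 ± 0.21 in iTreg, within its error of 0, and the mean over both probes was 0.40. Slfn3 also changed sign, at 0.08 in Th2, -0.04 in Th9 and 0.07 in iTreg, all within its error. With 1 array per culture neither difference was tested.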

How the results depend on the processing

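Slfn1, Slfn2 and Slfn8 were at least 2-fold lower in all 3 cultures under every alternative run. Median centring in place of loess moved the median of all measured genes to 0.33, 0.16 and -0.18 (Th2, Th9 and iTreg) and the share of 2-fold calls that were lower from 49.5% to 22.6%, from 50.2% to 34.8% and from 44.3% to 59.4%. Under it 1 member, in place of 4, was at least 2-fold apart between iTreg and Th2, and 1, in place of 0, between Th9 and Th2 (Slfn2, -1.14). With the mean over all probes of a gene 3 members were at least 2-fold apart between iTreg and Th2. The 4 members apart between iTreg and Th9 numbered 4 under each alternative. The count of members at least 2-fold lower was 3 or 4 in Th2, 4 or 5 in Th9 and 3 in iTreg. Slfn9 in Th2 ranged from -1.09 by the scanner software's ratio to -0.66 with median centring. Slfn8 ranged from the scanner software's ratio to the mean over its probes, at -5.52 to -3.01 in Th2, -6.39 to -3.45 in Th9 and -3.62 to -2.15 in iTreg, and Slfn1 in Th9 from -4.24 to -3.22. Slfn3 in iTreg was at -0.11 with median centring and at 0.25 by the deposited values, the latter just beyond its error of 0.22. No called value changed sign. No paired analysis was possible because each culture has 1 sample. Signals near background limit Slfn4, Slfn5 and the dimmer Slfn8 probe. Low culture signals also limit the sizes for the brighter Slfn8 probe and Slfn1. In Th9 these read 113 over a background of 49.5 and 153 over 47.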
